A study of Mus musculus with 14 samples.

Results

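Levels of 31 genes of mitosis and of the G2/M transition were compared in germinal centre B cells of mice that carried 0, 1 or 2 floxed alleles of Crebbp. They were chosen by name, as genes whose transcripts peak in dividing cells, and each is represented by its brightest probe set that is annotated to a single gene. Of the 31 genes, 30 had such a probe set and all 30 passed the filter on dim genes, among 10225 genes tested of 18193 in all. Ccnb1, one of the B-type cyclins, was not analysed here. The genes were picked without a threshold on measured values, but with earlier results of these arrays known.

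A cell enters mitosis when Cdk1, bound to cyclin A or B, is switched on, and it leaves when the anaphase-promoting complex marks the cyclins for destruction. Between these steps the spindle is built by kinesins and Aurora and Polo kinases, the checkpoint holds back anaphase until every chromosome is attached, and other kinesins then act as the cell divides. Germinal centre B cells are among the fastest dividing cells of the body, above all in the dark zone, and transcripts of this kind are widely used as markers of cycling cells.

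The 14 mice, all C57BL/6x129Sv and 8 to 12 weeks of age, carried Cg1-Cre, a Cre recombinase driven from an immunoglobulin constant region locus that B cells switch on after activation. WT mice were Crebbp+/+ Cg1-Cre (n = 4, 1 male), HET mice Crebbpfl/+ Cg1-Cre (n = 5, 2 males) and KO mice Crebbpfl/fl Cg1-Cre (n = 5, 3 males). Sheep red blood cells were injected on days 0 and 5, and B220+CD95+PNA+ cells were sorted from each spleen on day 12 for 1 array per mouse. The share of sorted cells in which the alleles had recombined was not analysed here. Values are log2 intensities, so a difference of 1 is a doubling, and the number of mice limits the precision.

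Crebbp checked the labels: on the most different of its 4 probe sets the KO arrays lay between 9.29 and 9.56 and the WT arrays between 10.19 and 10.36 (limma change -0.86, SE 0.10, adjusted p = 0.000822 over 22519 probe sets). On the other 3 the changes were -0.47, -0.41 and -0.30 (adjusted p = 0.0497, 0.0719 and 0.462), and on the last KO and WT arrays overlapped. HET arrays lay between 9.81 and 10.20 on the most different probe set, above every KO array but overlapping WT. It therefore set the HET labels apart from KO and did not check them against WT. The sorted cells had the markers of germinal centre B cells, with mean values from 10.74 for Mybl1 to 13.02 for Bcl6. Of the 7 T cell markers 2 passed the filter, of 6 myeloid markers 2 and of 3 measured erythroid markers 0. Of the plasma cell markers 5 of 5 passed, with Jchain at a mean of 13.16, and of 3 measured naive follicular markers 2 did. The array of KO 3 stood apart, with a median correlation to the others of 0.979, while the medians of the remaining arrays lay between 0.984 and 0.990.

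The promoters of these genes share sequence features that played no part in choosing them. RefSeq windows for GRCm38.p6, from 250 bases before to 50 after the start of the gene, were found for 26 of the 31 genes, and Aurkb, Ccna2, Dlgap5, Kif20a and Tpx2 were not searched. The letters of the cell cycle genes homology region, TTTGAA or TTCGAA on either strand, stood in 21 of the 26 windows (80.8%) against 19.4% of 27025 gene windows. CCAAT on either strand, the letters bound by NF-Y, stood in 22 (84.6%) against 37.9%, and at least 2 copies in 15 (57.7%) against 12.2%. Both kinds of letters were present in 19 windows (73.1%) against 7.7%. The E2F letters TTTGGCGC and TTTCCCGC on either strand were in 0 of the 26 windows and in 1.6% of all windows. TTCGAA is its own reverse complement, and CCAAT and TTTGAA can share an end letter. A match is a description and not a bound site. The stretches below are shown for their spacing of these letters in genes of different roles, as the 100 bases before the start, 5′ to 3′ on the strand of the gene, with both kinds of letters in capitals. They are a cyclin (Ccnb2, chr9:70421555-70421654, minus strand), its kinase (Cdk1, chr10:69352913-69353012, minus strand), the activator of the anaphase-promoting complex (Cdc20, chr4:118437344-118437443, minus strand), the ubiquitin-conjugating enzyme of that complex (Ube2c, chr2:164769829-164769928, plus strand) and a spindle motor (Kif11, chr19:37376282-37376381, plus strand).
Ccnb2: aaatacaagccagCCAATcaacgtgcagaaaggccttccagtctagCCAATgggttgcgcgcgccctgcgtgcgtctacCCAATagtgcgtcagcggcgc
Cdk1: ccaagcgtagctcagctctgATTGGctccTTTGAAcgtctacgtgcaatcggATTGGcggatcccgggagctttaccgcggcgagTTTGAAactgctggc
Cdc20: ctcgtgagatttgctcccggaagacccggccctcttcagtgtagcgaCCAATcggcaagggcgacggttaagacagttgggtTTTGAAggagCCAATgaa
Ube2c: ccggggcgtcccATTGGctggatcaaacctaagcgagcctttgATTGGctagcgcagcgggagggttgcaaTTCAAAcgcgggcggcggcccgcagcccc
Kif11: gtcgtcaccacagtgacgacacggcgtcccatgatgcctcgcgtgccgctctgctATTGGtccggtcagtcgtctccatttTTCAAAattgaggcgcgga
In Ccnb2 3 CCAAT boxes followed each other at steps of 33 and 33 bases, and a TTTGAA lay just inside the transcript. Cdk1 carried 2 TTTGAA and 2 inverted CCAAT boxes in the stretch shown. The 19 measured genes with both kinds of letters had a median KO against WT difference of 0.01 and the 6 other measured genes with a window had 0.06.

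Differences of mitosis and G2/M genes between KO and WT cells were small. In KO against WT 0 of the 30 genes passed the threshold of an adjusted p of 0.05 in limma, where 2.44% of all tested genes did. At an unadjusted p under 0.05 there was 1 gene, Ccnb2, against 13.1% of all tested genes. The differences ran from -0.13 for Kif11 to 0.15 for Ttk, with a median of 0.04, and 20 of the 30 were positive, where the median over all tested genes was 0.00 and 49% were positive. Without WT 1 the median was 0.00 and 15 of the 30 were positive. Without WT 4 it was 0.06 with 23 positive, and in females alone it was 0.06 with 22 positive. In sorted cells of a whole spleen a different share of dividing cells and a different amount of RNA per dividing cell cannot be told apart.

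How large a change these arrays leave room for is given by the 95% intervals, each for 1 gene at a time. On the brightest probe set the KO against WT interval lay within 1.5-fold in either direction for all 30 genes. The same held for 87.7% of all tested genes. Further probe sets of Hmmr and Nusap1, given below, had intervals that reached past 1.5-fold. Within 1.25-fold, a log2 difference of 0.32, lay the intervals of 26 genes (86.7%), against 51.7% of all tested genes and 64.9% of the 5655 genes in the same range of mean intensity. The exceptions were Aurka, Ube2c, Kif11 and Anln, the genes with the widest intervals.

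**Figure D1:**
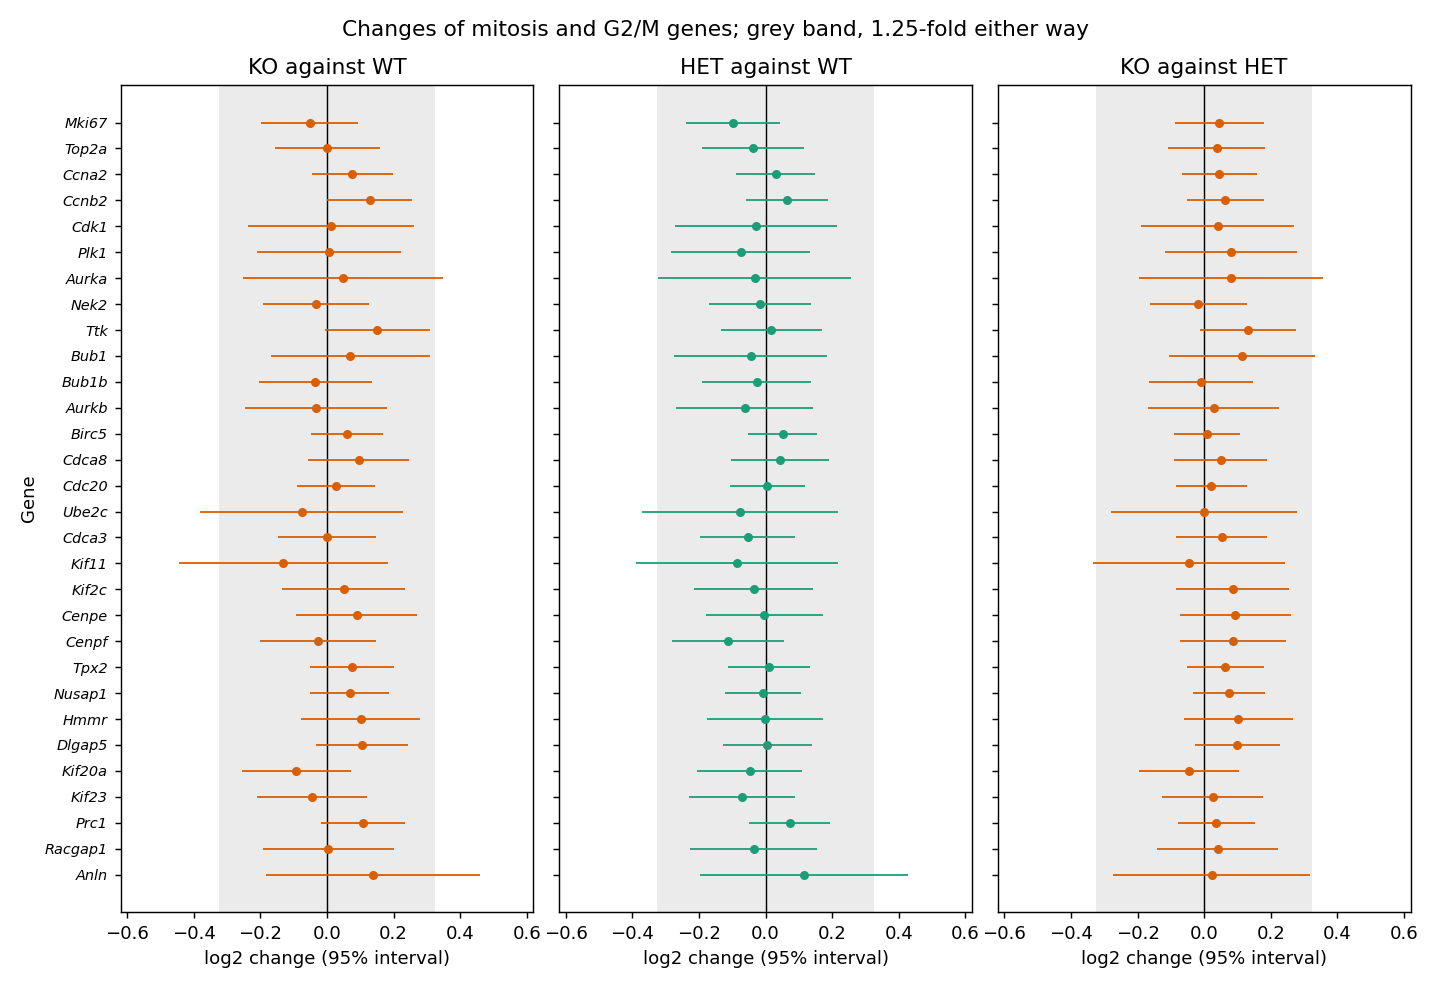
Each point is the limma log2 change of 1 gene, from left to right in KO against WT, HET against WT and KO against HET, with its 95% interval, and the grey band marks 1.25-fold in either direction. In the KO against WT panel 26 of the 30 intervals lie inside the band and 1, that of Ccnb2, does not reach 0.

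Among genes of mitotic chromosomes, Mki67 and Top2a had differences near 0. Mki67 encodes Ki-67, part of the coat of mitotic chromosomes and the classic proliferation marker. Its values were 13.35, 13.37, 13.45 and 13.50 in WT 1 to 4, 13.33, 13.36, 13.22, 13.32 and 13.35 in HET 1 to 5, and 13.29, 13.28, 13.52, 13.32 and 13.40 in KO 1 to 5. The groups overlapped, with KO 3 the highest and HET 3 the lowest array. The KO against WT difference was -0.05 (SE 0.07, adjusted p = 0.862), and its interval ran from 87.2% to 107% of the WT intensity. Top2a encodes the topoisomerase that untangles sister chromatids, and its values were 12.55, 12.59, 12.67 and 12.61 in WT 1 to 4, 12.55, 12.59, 12.51, 12.51 and 12.66 in HET 1 to 5, and 12.48, 12.57, 12.49, 12.68 and 12.78 in KO 1 to 5. KO 1 and KO 5 were the lowest and the highest of all arrays, so that the KO mice spanned the other groups. The difference was 0.00 (SE 0.07, adjusted p = 0.998), with an interval from 89.7% to 112% of WT.

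The cyclins and their kinase came next. Ccna2 encodes cyclin A2, which acts from S phase to early mitosis. It measured 12.11, 12.12, 12.20 and 12.31 in WT 1 to 4, 12.21, 12.28, 12.16, 12.26 and 12.21 in HET 1 to 5, and 12.28, 12.32, 12.30, 12.21 and 12.31 in KO 1 to 5. WT 1 and WT 2 were below every HET and KO array, while WT 4 lay among the highest, and the difference was 0.08 (SE 0.06, adjusted p = 0.667). Ccnb2, cyclin B2, had the smallest p of the 30 genes. Its values were 12.02, 12.06, 12.13 and 12.11 in WT 1 to 4, 12.08, 12.14, 12.16, 12.11 and 12.19 in HET 1 to 5, and 12.13, 12.13, 12.35, 12.18 and 12.14 in KO 1 to 5. KO 3 was the highest array by far, and the other KO arrays lay at or just above the upper WT arrays. The change of 0.13 (SE 0.06, adjusted p = 0.375) had an interval from 100.1% to 119% of WT. For Cdk1, the kinase of mitotic entry, the arrays gave 11.91, 12.01, 12.00 and 12.12 in WT 1 to 4, 11.88, 12.05, 11.88, 11.96 and 12.13 in HET 1 to 5, and 11.79, 12.03, 11.76, 12.27 and 12.26 in KO 1 to 5. The KO group held both the lowest values, KO 3 and KO 1, and the highest, KO 4 and KO 5, and the difference was 0.01 (SE 0.12, adjusted p = 0.987).

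Among the mitotic kinases Ttk, the checkpoint kinase also called MPS1, had the largest difference of the 30 genes. Its values were 10.62, 10.60, 10.65 and 10.70 in WT 1 to 4, 10.60, 10.71, 10.63, 10.66 and 10.69 in HET 1 to 5, and 10.66, 10.79, 10.90, 10.66 and 10.96 in KO 1 to 5. KO 3 and KO 5 were above all other arrays, KO 2 was next, and KO 1 and KO 4 lay within the WT range. The difference was 0.15 (SE 0.07, adjusted p = 0.406), an interval from 99.6% to 124% of WT. Bub1, a kinase that recruits checkpoint proteins to the kinetochore, measured 11.15, 11.29, 11.50 and 11.53 in WT 1 to 4, 11.21, 11.36, 11.20, 11.40 and 11.48 in HET 1 to 5, and 11.28, 11.44, 11.30, 11.57 and 11.69 in KO 1 to 5. The spread within WT, from 11.15 to 11.53, was wider than the difference between the groups of 0.07 (SE 0.11, adjusted p = 0.902). The other 4 kinase genes were Plk1 (Polo-like kinase, which matures the spindle poles), Aurka (Aurora A, which builds the spindle), Nek2 (which splits the centrosomes) and Bub1b (BubR1, an inhibitor of the anaphase-promoting complex). Their differences lay between -0.04 for Bub1b and 0.05 for Aurka. For Aurka the KO arrays ran from 10.55 in KO 1 to 11.31 in KO 5, past the WT range of 10.74 to 10.99 at either end.

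The chromosomal passenger complex, which corrects faulty attachments of chromosomes to the spindle, includes the products of Aurkb, Birc5 and Cdca8. Birc5, survivin, had the tightest values of the 30 genes at 13.20, 13.19, 13.20 and 13.15 in WT 1 to 4, 13.19, 13.20, 13.24, 13.29 and 13.25 in HET 1 to 5, and 13.21, 13.21, 13.30, 13.22 and 13.24 in KO 1 to 5. All 5 KO arrays lay narrowly above the 4 WT arrays, HET arrays lay among both, and the difference was 0.06 (SE 0.05, adjusted p = 0.717). Cdca8, borealin, gave 13.05, 13.17, 13.08 and 13.16 in WT 1 to 4, 13.13, 13.10, 13.23, 13.20 and 13.12 in HET 1 to 5, and 13.20, 13.15, 13.41, 13.10 and 13.17 in KO 1 to 5. KO 3 was above all other arrays and the other KO arrays overlapped WT, with a difference of 0.09 (SE 0.07, adjusted p = 0.667). Aurkb, Aurora B, differed by -0.03 (SE 0.10, adjusted p = 0.949), its KO arrays lying between 11.05 in KO 3 and 11.46 in KO 5.

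Genes of the ubiquitin steps that end mitosis had a median difference of 0.00. Ube2c, which passes ubiquitin to the substrates of the anaphase-promoting complex, measured 12.31, 12.39, 12.12 and 12.25 in WT 1 to 4, 12.16, 12.31, 11.99, 12.15 and 12.39 in HET 1 to 5, and 12.20, 12.34, 11.70, 12.46 and 12.34 in KO 1 to 5. KO 3 was lower than every other array, and the other KO arrays overlapped WT, giving a difference of -0.08 (SE 0.14, adjusted p = 0.918) with an interval from 76.8% to 117% of WT. Cdc20, the activator of the same complex, measured 12.15, 12.19, 12.07 and 12.14 in WT 1 to 4, 12.12, 12.18, 12.12, 12.10 and 12.17 in HET 1 to 5, and 12.13, 12.19, 12.24, 12.10 and 12.12 in KO 1 to 5. Its 14 values lay between 12.07 in WT 3 and 12.24 in KO 3, and the difference was 0.03 (SE 0.05, adjusted p = 0.926). Cdca3, a substrate adaptor of cell cycle ubiquitination, had a difference of 0.00 (SE 0.07, adjusted p = 0.998).

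Motors and kinetochore proteins had differences of either sign. Kif11, the kinesin that pushes the spindle poles apart, had the most negative difference of the 30 genes. Its values were 11.49, 11.53, 11.59 and 11.40 in WT 1 to 4, 11.27, 11.53, 11.32, 11.49 and 11.46 in HET 1 to 5, and 11.22, 11.40, 10.88, 11.69 and 11.66 in KO 1 to 5. KO 3 was far below all other arrays while KO 4 and KO 5 were above them, and the difference of -0.13 (SE 0.15, adjusted p = 0.826) had the interval 73.5% to 113% of WT. Cenpe, a kinesin that carries chromosomes to the spindle equator, measured 11.22, 11.40, 11.43 and 11.51 in WT 1 to 4, 11.34, 11.41, 11.31, 11.39 and 11.48 in HET 1 to 5, and 11.39, 11.34, 11.62, 11.42 and 11.63 in KO 1 to 5. KO 3 and KO 5 were the highest arrays, WT 1 the lowest, and the difference was 0.09 (SE 0.08, adjusted p = 0.774). Kif2c, a microtubule depolymerase at the centromere, and Cenpf, a large kinetochore protein, differed by 0.05 and -0.03, with KO 3 the highest array for both.

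Each of the 4 genes of spindle assembly had a positive difference on its brightest probe set, from 0.07 to 0.10, and 0 of them passed. A further, dimmer probe set of Nusap1 differed by -0.08 (SE 0.26). Dlgap5, a protein that stabilises kinetochore fibres, measured 9.88, 9.95, 9.99 and 9.93 in WT 1 to 4, 9.94, 10.10, 9.83, 9.94 and 9.89 in HET 1 to 5, and 10.02, 10.04, 10.12, 10.01 and 9.9998 in KO 1 to 5. The 5 KO arrays lay above the 4 WT arrays, KO 5 and WT 3 being the nearest pair, but HET 2 at 10.10 was nearly as high as KO 3. The difference was 0.10 (SE 0.06, adjusted p = 0.558). Tpx2, the activator of Aurora A on microtubules, measured 12.30, 12.28, 12.29 and 12.12 in WT 1 to 4, 12.14, 12.20, 12.29, 12.32 and 12.28 in HET 1 to 5, and 12.27, 12.28, 12.39, 12.28 and 12.27 in KO 1 to 5. WT 4 and HET 1 were the lowest arrays and KO 3 the highest, while the other KO arrays matched WT 1 to WT 3, with a difference of 0.07 (SE 0.06, adjusted p = 0.694). Nusap1 and Hmmr, both microtubule-binding proteins of the spindle, differed by 0.07 and 0.10. Groups without overlap between KO and WT were seen for Birc5 and Dlgap5, 2 of the 30 genes, where 6.51% of all tested genes had none. In both the KO arrays were the higher ones, as for 2.87% of all tested genes.

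The last group acts at the central spindle and in cytokinesis. Prc1, which bundles the antiparallel microtubules of the midzone, measured 12.55, 12.47, 12.40 and 12.36 in WT 1 to 4, 12.48, 12.51, 12.46, 12.58 and 12.56 in HET 1 to 5, and 12.58, 12.55, 12.49, 12.56 and 12.59 in KO 1 to 5. WT 1 lay among the KO arrays, while WT 3 and WT 4 were below all others, and the difference was 0.11 (SE 0.06, adjusted p = 0.471). Kif20a, a kinesin of the midzone also called MKLP2, measured 11.17, 11.24, 11.23 and 11.30 in WT 1 to 4, 11.15, 11.28, 11.12, 11.12 and 11.29 in HET 1 to 5, and 11.10, 11.16, 10.9985, 11.16 and 11.35 in KO 1 to 5. KO 5 was the highest and KO 3 the lowest of all arrays, and the difference of -0.09 (SE 0.08, adjusted p = 0.716) was negative. Kif23 and Racgap1, which together form the centralspindlin complex, differed by -0.05 and 0.00. Anln, an anillin that scaffolds the contractile ring, ran from 9.22 in WT 1 to 9.86 in KO 4, and had a difference of 0.14 (SE 0.15, adjusted p = 0.818).

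**Figure D2:**
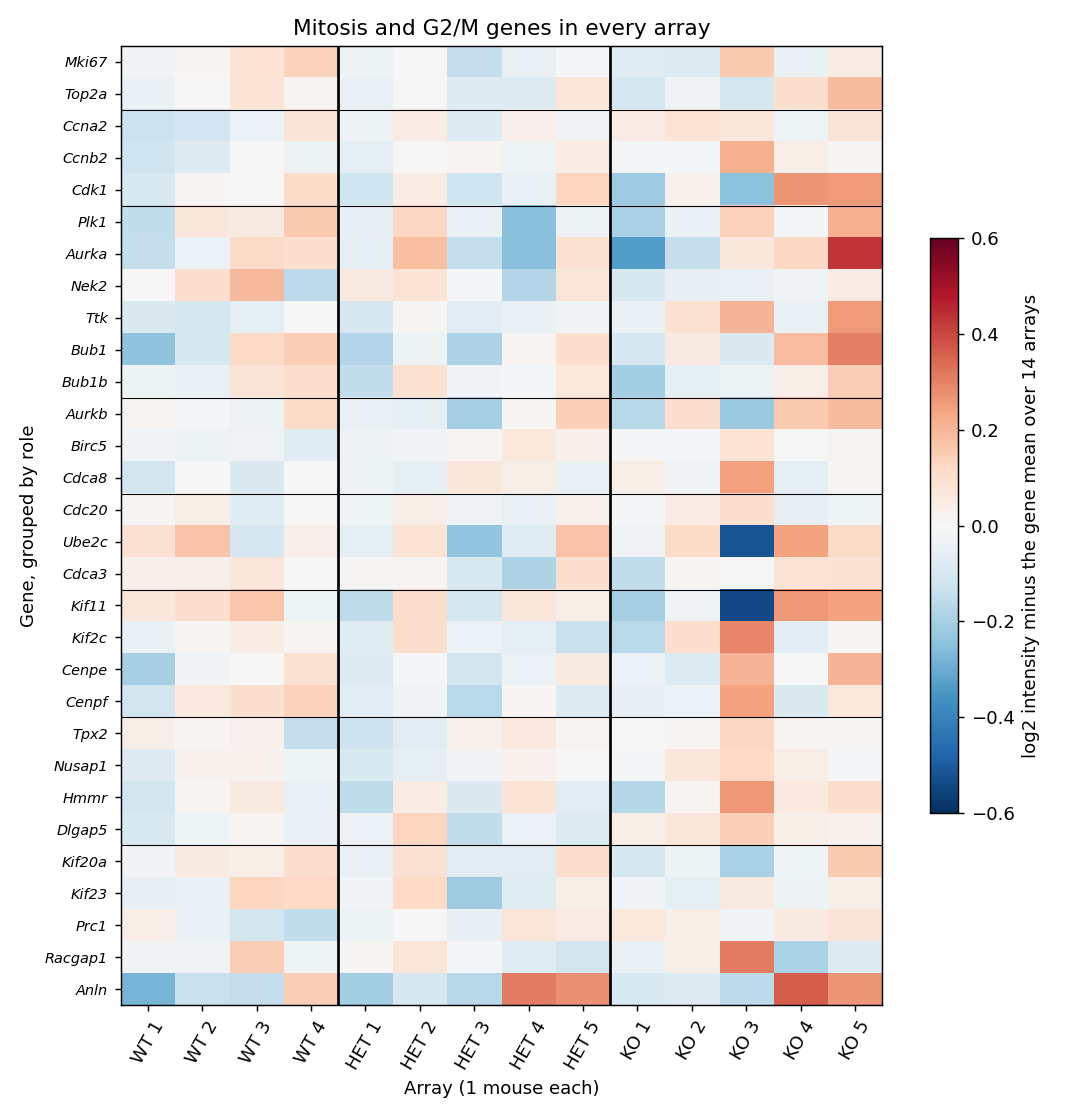
Each row is 1 gene and each column 1 array, coloured by the log2 intensity minus that gene's mean over the 14 arrays, with horizontal lines between roles and vertical lines between WT, HET and KO. No block of colour follows genotype, and the KO 3 column holds both the deepest blue cells, Ube2c and Kif11, and many red ones.

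Averaged over the 30 genes, the arrays differed little and the groups overlapped. The mean per array, with each gene centred on its mean over the 14 arrays, was -0.06, 0.00, 0.03 and 0.03 in WT 1 to WT 4. It was -0.07, 0.03, -0.08, -0.03 and 0.03 in HET 1 to HET 5, and -0.08, 0.00, 0.03, 0.05 and 0.11 in KO 1 to KO 5. KO 5 was the highest array and HET 3 and KO 1 the lowest, so that the KO mice covered the whole range of the WT mice and more. The group means were 0.00 ± 0.04 (SD, n = 4) in WT, -0.02 ± 0.05 (SD, n = 5) in HET and 0.02 ± 0.07 (SD, n = 5) in KO. The difference between KO and WT, 0.02, corresponds to 1.7% of the intensity and was smaller than the SD within any group. It takes no account of sex, and the groups held unequal numbers of males. In females alone the difference between KO and WT was 0.05, and without KO 5 it was 0.00. The difference between KO and HET was 0.04. No test was made on this mean.

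**Figure D3:**
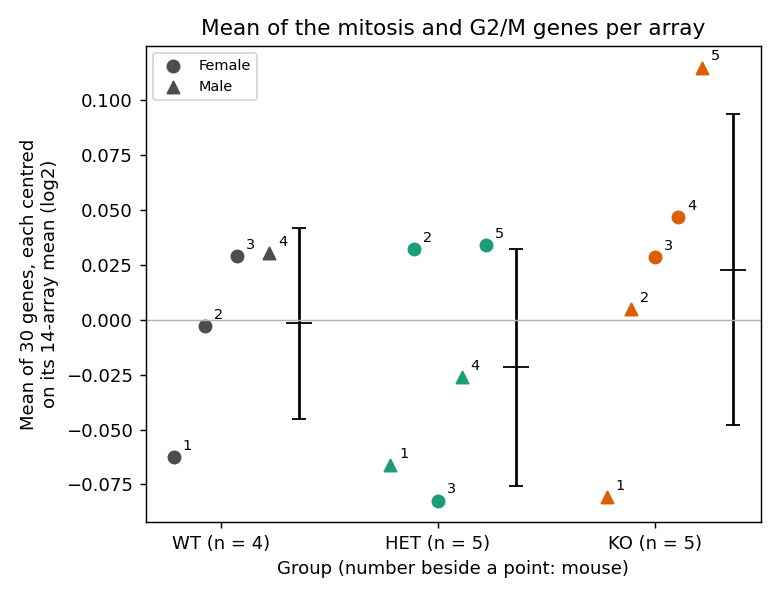
Each point is 1 mouse, and its height is the mean over the 30 genes of the log2 intensity centred on each gene's mean, with circles for females and triangles for males, and a bar for the mean and SD of each group. The 3 groups overlap, and KO spans from -0.08 in KO 1 to 0.11 in KO 5.

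In single mice many of these genes lay on the same side of their median. In KO 5 26 of the 30 genes were above their own median over the arrays, and in HET 1, HET 3 and KO 1 3, 5 and 5 were. The share of all tested genes above their own median in these arrays was not counted, so these counts have no background. KO 3 had 12 of the 30 genes at their highest and 5 at their lowest value of all arrays. Of all tested genes 23.1% were highest and 16.9% lowest in KO 3. These 17 genes compare with 40.0% of all tested genes that had an extreme in KO 3, and the 10 genes highest in KO 5 with 9.83% of all. The genes highest in KO 3 included Ccnb2, Birc5, Cdca8, Tpx2, Hmmr and Cenpf, and the 5 lowest were Cdk1, Aurkb, Ube2c, Kif11 and Kif20a. The SD within KO exceeded that within WT for 24 of the 30 genes (67.7% of all tested genes), and without KO 3 for 15 (54.0% of all). Light zone markers, a list of 5 genes including Cd83, Cd86 and Cd40, stood at a mean of 11.35 in KO 5, from 11.57 to 11.82 in the other KO arrays, and from 11.86 to 11.91 in WT. The part of this in the values of KO 5 was not tested. Germinal centre markers had a mean of 11.85 in KO 3, from 11.99 to 12.18 in the other KO arrays and from 12.13 to 12.22 in WT, and the part of this in the values of KO 3 was not tested either. Dark zone markers, measured on Cxcr4, Foxo1, Polh and Gcsam, ranged from 12.33 to 12.42 in WT and from 12.29 to 12.45 in KO.

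After genotype and sex were taken into account, the spread between mice was lower at the median than over all genes. The median residual SD was 0.10 for the 30 genes, against 0.15 for all tested genes and 0.12 for genes in the same range of mean intensity, and 21 of the 30 lay below that last value. It was largest for Anln, Kif11, Ube2c and Aurka, and smallest for Birc5 at 0.03.

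**Figure D4:**
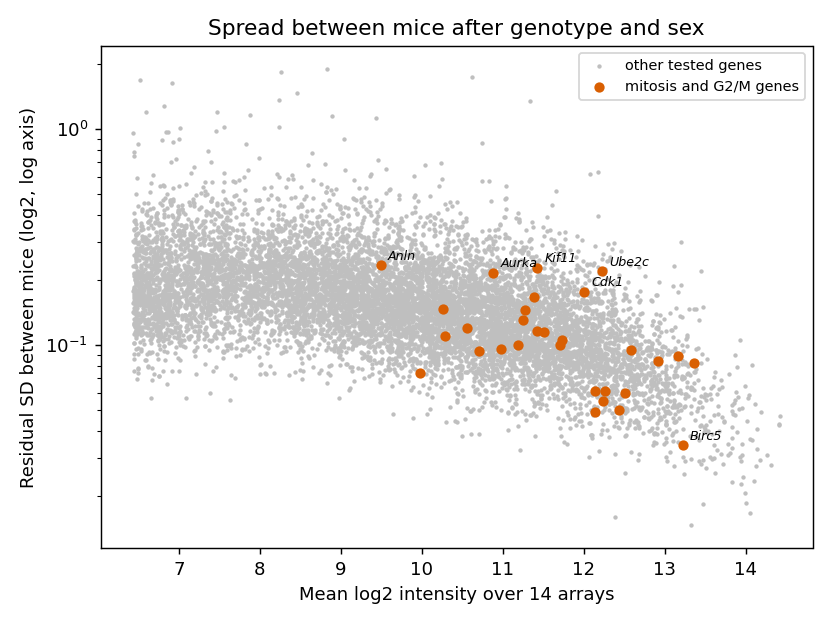
Each point is 1 tested gene, placed by its mean log2 intensity and by its residual SD between mice after genotype and sex, on a log axis, with the 30 mitosis and G2/M genes in orange. Most of them lie in the lower part of the cloud, with Anln, Aurka, Kif11, Ube2c and Cdk1 higher and Birc5 lowest.

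No difference from WT was detected in cells with a single floxed allele. In HET against WT limma called 0 of the 30, where 0% of all tested genes were called, and 0 had an unadjusted p under 0.05, against 2.74% of all. The differences ran from -0.11 for Cenpf to 0.12 for Anln with a median of -0.03, and 10 of the 30 were positive against 50.7% of all tested genes. Without WT 4 the median was 0.01 with 16 positive, and in females alone it was 0.01 with 16 positive. Intervals lay within 1.5-fold for all 30 genes, against 94.3% of all tested genes, and within 1.25-fold for 26, against 63.7% of all tested genes and 78.4% of those in the same range of mean intensity. For Mki67 the HET difference was -0.10 (SE 0.07), for Ccnb2 0.06 (SE 0.06) and for Ttk 0.02 (SE 0.07). The KO and HET comparisons share the WT arrays.

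Between KO and HET limma also called 0 of the 30 genes, where 0.264% of all tested genes were called, and 0 had an unadjusted p under 0.05, against 6.39% of all. Of the 30 differences 25 were positive, against 47.3% of all tested genes, and the median was 0.05. Intervals lay within 1.5-fold for all 30 genes (93.5% of all tested genes) and within 1.25-fold for 27 (65.4% of all, and 79.2% of those in the same range of mean intensity). Ttk differed most at 0.13 (SE 0.07, adjusted p = 0.847), followed by Bub1 at 0.12 (SE 0.10). This lean rests in part on KO 5, without which 20 of the 30 differences were positive and the median was 0.03. A trend over 0, 1 and 2 floxed alleles was called for 0 of the 30 genes in limma, against 3.04% of all tested genes, and 21 slopes were positive, against 49.2%. Its unadjusted p was under 0.05 for Ccnb2 and Ttk, 2 of the 30 against 14.2% of all tested genes, with slopes of 0.06 (SE 0.03, adjusted p = 0.306) and 0.08 (SE 0.04, adjusted p = 0.349) per allele.

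Males and females were compared in the same fit. Limma called 0 of the 30 between males and females, against 0.0293% of all tested genes, and 0 had an unadjusted p under 0.05, against 6.38% of all. Of the 30 differences 11 were positive, against 51.1% of all tested genes, and they ran up to 0.07 for Anln. The most negative belonged to Nek2 at -0.10 (SE 0.06, adjusted p = 0.769).

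Most of the genes have further probe sets on the array, which repeat the measurement at other stretches of the transcript. Beyond the brightest ones, 32 probe sets of 21 genes passed the filter on dim values. Among these, limma called 0 in KO against WT over 22519 probe sets and 0 had an unadjusted p under 0.05. Their differences ran from -0.15 to 0.32 with a median of 0.02, and 25 of the 32 had the sign of the brightest probe set. A further probe set of Ttk differed by 0.26 (SE 0.14, adjusted p = 0.586) and one of Prc1 by 0.12 (SE 0.06, adjusted p = 0.514). Ccna2 measured 0.01 on a probe set nearly as bright as the one above, where the difference was 0.08. Further probe sets of Cdc20 differed by -0.07 and -0.06, against 0.03 on its brightest. Those of Cdca8 differed by 0.00 and -0.01, against 0.09 on its brightest. The most positive value, 0.32 (SE 0.19, adjusted p = 0.654), came from 1 of the 4 further probe sets of Hmmr above the filter, the other 3 of which lay between 0.00 and 0.13.

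Other genes of the same machinery, from lists that share no gene with the 30, were measured in KO against WT too. In each of the following lists limma called 0 genes, against the same 2.44% of all tested genes. The regulators of mitotic entry, such as the Cdc25 phosphatases and Wee1, had 7 of 16 positive differences and a median of -0.01. Bora, an activator of Plk1, differed by 0.13 (SE 0.06, adjusted p = 0.411) and the phosphatase gene Cdc25c by 0.15 (SE 0.09, adjusted p = 0.568). Kinetochore and spindle checkpoint genes had 11 of 20 positive differences and a median of 0.01, led by the Ndc80 complex subunits Spc25 at 0.18 (SE 0.09, adjusted p = 0.406) and Spc24 at 0.10 (SE 0.05, adjusted p = 0.45). Centromere and CENP genes had 13 of 17 positive differences, a median of 0.05 and 2 genes with an unadjusted p under 0.05, Cenpp at 0.17 (SE 0.07, adjusted p = 0.296) and Cenpo at 0.17 (SE 0.07, adjusted p = 0.331), against 13.1% of all tested genes.

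Condensin and cohesin genes, which compact chromosomes and hold sisters together, had 7 of 18 positive differences and a median of -0.01, with all 18 intervals within 1.25-fold. Their smallest p-values belonged to the condensin subunits Ncaph at -0.11 (SE 0.07, adjusted p = 0.613) and Ncapd2 at -0.12 (SE 0.09, adjusted p = 0.661). Subunits and partners of the anaphase-promoting complex had 10 of 19 positive differences and a median of 0.02, led by Fzr1, the activator of late mitosis, at -0.15 (SE 0.09, adjusted p = 0.554) and Anapc16 at -0.12 (SE 0.10, adjusted p = 0.696). A list of 30 other spindle and cytokinesis genes, such as Aspm, Kif4 and Ect2, had 15 positive differences and a median of 0.00, with Iqgap3 at -0.21 (SE 0.14, adjusted p = 0.597) and Psrc1 at 0.12 (SE 0.08, adjusted p = 0.62).

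Genes that control this programme were measured too. Of 17 transcriptional regulators, among them Foxm1, Mybl2, the MuvB subunits and NF-Y, 8 had positive differences and the median was -0.01. An unadjusted p under 0.05 was found for 1 of the 17, against 13.1% of all tested genes. E2f7, a repressor of the E2F family, differed by 0.17 (SE 0.07, adjusted p = 0.267) and Lin54, the MuvB subunit that binds DNA, by 0.23 (SE 0.12, adjusted p = 0.452). Of 11 G2 arrest and antiproliferative genes 5 had positive differences and 3 an unadjusted p under 0.05, against 13.1% of all tested genes, with a median of -0.06. They were led by Cdkn1b, the inhibitor p27, at 0.27 (SE 0.08, adjusted p = 0.116) and Ccng1, a p53 target, at 0.17 (SE 0.05, adjusted p = 0.129). DNA replication genes, which act in the preceding S phase, had 15 of 31 positive differences and a median of 0.00. Of the 31, 2 had an unadjusted p under 0.05, against 13.1% of all tested genes. The smallest p-values belonged to the GINS subunits Gins1 at -0.21 (SE 0.07, adjusted p = 0.144) and Gins2 at 0.17 (SE 0.06, adjusted p = 0.196).

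A few cell type markers passed the threshold in KO against WT, where 2.44% of all tested genes did, and are named here because they did. Rgs13 of the germinal centre list fell by 0.62 (SE 0.12, limma adjusted p = 0.018), Egr3 of the light zone list fell by 0.64 (SE 0.14, adjusted p = 0.0271), and Sdc1 of the plasma cell list rose by 0.81 (SE 0.19, adjusted p = 0.0404). Sdc1 was the single positive difference among the 5 plasma cell markers, whose median was -0.15. Of the 9 germinal centre markers 7 had negative differences and the median was -0.15. An unadjusted p under 0.05 was found for 3 of the 9, against 13.1% of all tested genes. All 5 light zone markers had negative differences, while in the dark zone list, which has 4 measured genes, 1 was positive and the median was -0.03. Rgs13, Egr3 and Sdc1 were not refitted without single arrays. The mean of the 7 T cell markers ranged from 5.48 to 5.82 in WT, from 5.36 to 5.94 in HET and from 5.41 to 6.26 in KO. That of the 6 myeloid markers ranged from 5.88 to 6.86 in WT, from 5.68 to 6.63 in HET and from 5.96 to 6.76 in KO, and the part of these cells in the values above was not tested.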

How the data were processed

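The deposited values are log2 intensities from 14 Affymetrix mouse arrays, and per the submitters' processing notes the authors made them with RMA, whose version is not given in the sources used here. RMA subtracts background, forces arrays to a common distribution by quantiles and summarises probes, so a shift of most genes one way would not be seen and small changes of dim probe sets are compressed.

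Of 45101 probe sets, 34945 had a single gene. Each gene took its brightest probe set by mean over the arrays, and genes with that mean above 6.43, the median of non-control probe sets, were tested. Groups and sex came from the labels. Limma 3.58.1 in R 4.3.3 (lmFit, eBayes) was fitted to the 14 arrays together, with terms for group and for sex. The Benjamini-Hochberg method adjusted p-values over 10225 genes at a threshold of 0.05, and "adjusted p" means this value throughout, unless probe sets are named. Fits were tested on simulated data. Members and lists were chosen with earlier results of these data known. Values in every array are given for up to 2 members per role with the smallest p in KO against WT, for Mki67 and Cdk1, and for the members with the most positive and the most negative difference. From each other list up to 2 genes with the smallest p, or those called, are named. Per the labels each array is a separate mouse. Light zone, dark zone and other cell type markers were used to describe the sort. No 2 arrays shared more than 58 identical values.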

Additional observations from a re-analysis of the deposited data

Results flagged for a closer look

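Within a group, 5 of 93 sets of values (30 genes and their mean, in 3 groups) had an array far from the others by Dixon's criterion, 5.38% where chance gives about 5%. In WT, Tpx2 was 12.12 in WT 4 with the next array at 12.28, and Racgap1 was 11.39 in WT 3 with the next at 11.23. The other 3 were in KO 3, where Ccnb2 was 12.35 with the next KO array at 12.18, Birc5 was 13.30 with the next at 13.24, and Tpx2 was 12.39 with the next at 12.28.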

How the results depend on the processing

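In KO against WT, HET against WT, KO against HET, the allele trend and the sex comparison, limma called 0 of the measured genes under every alternative that could be fitted, an adjusted p under 0.1 included. With the replicate block, limma called 0 of the 30 genes in all 5 comparisons and 0 had an unadjusted p under 0.05, so Ccnb2 in KO against WT, and Ccnb2 and Ttk in the trend, no longer did. In KO against WT the block gave a median of 0.00 with 15 of the 30 differences positive. Same-numbered arrays had correlations of deviations from -0.17 to 0.38, over 0.1 in 9 of 13 pairs, and 8 of 14 arrays correlated best with their own number. The mean correlation was 0.18 for same-numbered pairs and -0.04 for the other pairs between groups. The main fit did not use the numbers. With array weights, the smallest adjusted p in KO against WT was 0.237 and 2 genes had an unadjusted p under 0.05. The median difference in KO against WT ran from 0.00 without WT 1 to 0.06 without KO 1, in HET against WT from -0.05 without WT 1 to 0.01 without WT 4, and in KO against HET from 0.03 without KO 5 to 0.06 without KO 1. The KO minus WT difference of the mean per array ran from 0.00 without KO 5 to 0.05 without KO 1. Over 26 alternatives 17 of the 30 genes changed the sign of their KO against WT difference at least once. Calls over all tested genes in KO against WT ranged from 79 with females only to 336 without the sex covariate. Leaving out each array in turn gave 0 calls among the 30 genes in each of the 5 comparisons. The number of mice limits what can be seen, as the intervals show.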
